A study of Mus musculus with 8 samples.

Results

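The 10 genes studied here belong to the dermal adipocyte and were followed in skin treated with alpinetin or with its vehicle. They were found by gene symbol among the 18770 genes of the expression table, and all 10 members, Adipoq, Plin1, Fabp4, Cidec, Lep, Retn, Car3, Cfd, Lpl and Pck1, were listed. Messenger RNA had been sequenced from the dermis and hair follicles of dorsal skin, with the interfollicular epidermis taken off, at day 4 (D4) after depilation. The animals were wildtype C57BL/6 mice of 7 to 8 weeks, and all were male. The AP group (4 mice) received alpinetin, a plant flavonoid, once a day on the skin (3 mg/ml, 20 µl, dissolved in 65% ethanol), while the VC group (4 mice) was given the 65% ethanol alone. Both groups were depilated, which starts a new hair cycle, so the comparison is between AP and VC skin and not with resting skin. The table numbers the libraries of each group from 1 to 4 (VC.1, AP.1 and so on). None could be tied to a particular mouse, and values for single libraries are always listed in that order.

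Dermal white adipose tissue lies beneath the dermis around the lower parts of the follicles, above a thin sheet of skeletal muscle, and it is known to thicken and thin with the hair cycle. A mature fat cell takes up fatty acids that lipoprotein lipase frees from blood lipids and carries them bound to a fatty acid binding protein. It stores them as triglyceride in a droplet coated by perilipin and CIDE proteins, and it secretes adipokines such as adiponectin and leptin. The transcription factors PPARG and C/EBPα switch on most of these genes together during adipocyte differentiation.

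Promoter sequences are shown as a description, and their part in the levels of the 10 genes was not tested. In RefSeq (GRCm38.p6), 7 of the 10 members had an entry of 300 bases, from 250 before to 50 after the start, with 8 entries in all because Cidec has more than 1 start. The letters TTGCNNAA, a core of C/EBP binding sites, were found on either strand in 3 of the 8 entries and in 10.8% of all 32851 promoters of that length. The 3 entries are printed 5′ to 3′ on the gene's strand with those letters in capitals. They belong to Plin1 (chr7:79732727-79733026, minus strand, matches beginning at -187 and -58 from the start), to 1 of the Cidec starts (chr6:113434715-113435014, minus strand, -198) and to Lep (chr6:29059971-29060270, plus strand, -55).
Plin1: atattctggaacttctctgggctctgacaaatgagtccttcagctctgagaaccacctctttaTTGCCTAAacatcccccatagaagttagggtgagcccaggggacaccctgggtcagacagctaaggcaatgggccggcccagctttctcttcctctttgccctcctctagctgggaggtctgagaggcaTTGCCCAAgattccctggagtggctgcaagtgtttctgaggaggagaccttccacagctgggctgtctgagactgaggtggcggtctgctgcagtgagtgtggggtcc
Cidec: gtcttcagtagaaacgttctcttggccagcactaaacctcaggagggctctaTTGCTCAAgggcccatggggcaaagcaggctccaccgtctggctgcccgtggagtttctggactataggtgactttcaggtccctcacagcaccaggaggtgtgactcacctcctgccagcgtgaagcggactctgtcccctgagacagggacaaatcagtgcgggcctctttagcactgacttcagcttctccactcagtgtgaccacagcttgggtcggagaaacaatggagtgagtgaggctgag
Lep: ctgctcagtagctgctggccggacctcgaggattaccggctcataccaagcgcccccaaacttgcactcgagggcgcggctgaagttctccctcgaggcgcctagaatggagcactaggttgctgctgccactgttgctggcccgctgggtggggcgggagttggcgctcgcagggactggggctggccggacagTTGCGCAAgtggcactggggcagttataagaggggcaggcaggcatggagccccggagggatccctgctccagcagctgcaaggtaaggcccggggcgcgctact
In all, 11 motifs were searched on both strands, and these letters were picked for display after the matches had been seen. The direct repeat DR1, bound by PPARG with its partner RXR, was in 0 of the 8 entries and in 0.0396% of all promoters, and TATAAA was in 0 of the 8 and in 13.6% of all. A looser DR1, with a free base in each repeat, was in 0 of the 8 and in 0.381% of all. Likewise in 0 of the 8 were its repeat unit AGGTCA alone (16.3% of all), the E-box CACGTG (7.15% of all) and the steroid receptor pattern ACANNNTGT (6.85% of all). TTNCNNAA, which takes in every TTGCNNAA match, was in 6 of the 8 (40.7% of all) and its narrower form TTNCGNAA was in 2 (2.47% of all). The CCAAT box was in 1 (37.4% of all), as was the pattern TCACNNCAC (3.77% of all). These are matches of letters in a short window and not sites shown to be bound.

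Values are normalized counts, that is read counts divided by the size factor of the library. Counted reads on the listed genes ranged from 6454563 to 7264151 in VC libraries and from 8507783 to 11190113 in AP libraries. Mitochondrially encoded genes took 42.1% to 54.3% of the reads in the VC libraries and 5.32% to 11.1% in the AP libraries, so that depth and this share both differed between the groups. A floor of 3 reads corresponded to at most 5.63 normalized counts, and the lowest member value in any library, Lep in VC.2, rested on 35 reads. All 10 members were therefore well above the floor in all 8 libraries, and the defining adipocyte genes Adipoq and Plin1 were present in each.

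The adipocyte genes did not separate AP skin from VC skin. With limma's moderated test on log2(normalized count + 1), which is the scale of all log2 values here, 0 of the 10 members were higher in AP skin and 0 lower at an adjusted p under 0.05. Of all 15964 genes tested, 6.33% were higher and 4.0% were lower. An unadjusted p under 0.05 was reached by 2 members (Plin1 and Retn), and edgeR and DESeq2 on the recovered reads also called 0 members and gave 2 with an unadjusted p under 0.05. With the cut-offs of the methods, a raw p under 0.01 with a change of more than 1.5-fold, 0 members were called, against 8.26% of all genes higher and 5.32% lower. The ranges of the groups overlapped for all 10 members, while 10.3% of all genes had AP libraries entirely above the VC libraries and 8.91% entirely below. The log2 fold changes, AP over VC, ran from -0.50 to 1.03 with 5 above and 5 below 0, and their median was 0.08 beside 0.06 over all genes tested. The 95% intervals were wide: for 0 of the 10 members did the interval exclude a 2-fold difference in both directions. In such tissue samples, fewer adipocytes and less RNA per adipocyte cannot be told apart.

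**Figure D1:**
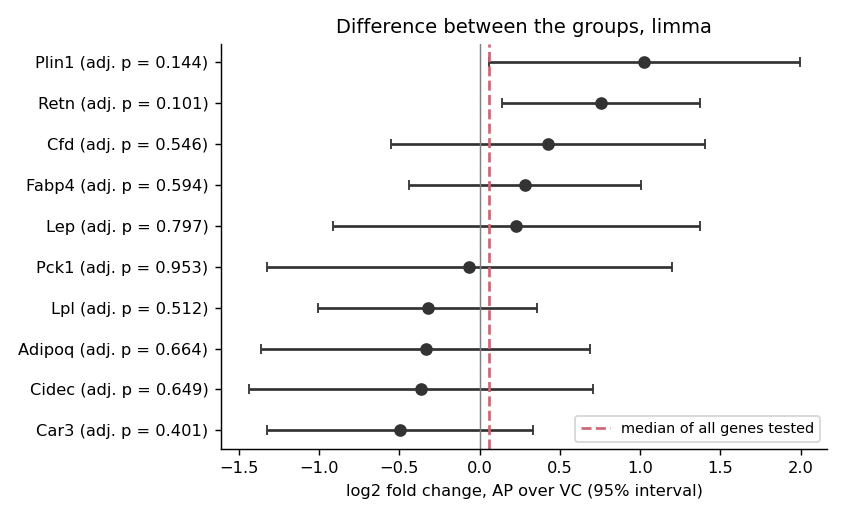
Log2 fold change of each of the 10 adipocyte genes, AP over VC, from limma (x axis, log2 units; points with 95% intervals; adjusted p beside the gene, n = 4 libraries a group); the dashed line is the median of all genes tested, 0.06. Only the intervals of Plin1 and Retn lie wholly above 0, and neither gene passed an adjusted p of 0.05.

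Among the droplet coat genes, Plin1 encodes perilipin 1, which shields the stored fat from lipases (chromosome 7, 79720218 to 79732903, minus strand, mm10). It had 717, 233, 395 and 362 normalized counts in VC mice and 755, 2081, 597 and 441 in AP mice. AP.2 stood far above the rest, and the lowest AP library was higher than 3 of the 4 VC libraries. VC skin averaged 427 ± 205 and AP skin 969 ± 753 (SD, n = 4 each), with a log2 fold change of 1.03 (SE 0.44, 95% interval 0.06 to 2.0, limma adjusted p = 0.144). An exact two-sided permutation test (70 ways to split the libraries 4 and 4) gave p = 0.114. Without AP.2 the log2 fold change was 0.57.

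Cidec encodes a protein that lets lipid pass between droplets so that they grow (chromosome 6, 113424634 to 113435760, minus strand). It had 6050, 1225, 1510 and 2636 normalized counts in VC mice and 2002, 3791, 1372 and 1030 in AP mice. VC.1 was the highest of the 8 and the groups overlapped. The log2 fold change was -0.36 (SE 0.49, 95% interval -1.44 to 0.71, limma adjusted p = 0.649), and it was 0.09 without VC.1.

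Lipid uptake and carriage was represented by Lpl and Fabp4. Lpl, the lipoprotein lipase that muscle also makes (chromosome 8, 68880491 to 68907448, plus strand), had 5885, 3814, 3053 and 4144 normalized counts in VC mice and 3586, 5629, 3079 and 1865 in AP mice. Its log2 fold change was -0.32 (SE 0.31, 95% interval -1.01 to 0.36, adjusted p = 0.512), from -0.58 without AP.2 to -0.05 without AP.4. Fabp4, the fatty acid carrier that capillary endothelium also expresses (chromosome 3, 10204088 to 10208576, minus strand), had 9703, 3114, 4092 and 5115 in VC mice and 7032, 8106, 5540 and 4387 in AP mice. VC.1 was the highest library for both genes. For Fabp4 the log2 fold change was 0.28 (SE 0.33, 95% interval -0.44 to 1.0, adjusted p = 0.594), from 0.05 without VC.2 to 0.60 without VC.1.

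Of the 4 secreted products, adiponectin (Adipoq, chromosome 16, 23146536 to 23158028, plus strand), which raises insulin sensitivity, had 2505, 681, 754 and 1881 normalized counts in VC mice. It had 950, 2232, 745 and 604 in AP mice, so that its log2 fold change was -0.33 (SE 0.47, 95% interval -1.36 to 0.69, adjusted p = 0.664). VC.1, AP.2 and VC.4 were high and the other 5 libraries low, so the groups overlapped. Leptin (Lep, chromosome 6, 29060220 to 29073877, plus strand), the satiety hormone, had 246, 51.7, 134 and 120 in VC mice and 101, 402, 97.7 and 98.0 in AP mice. AP.2 stood alone, since the other 3 AP libraries lay between 97.7 and 101 normalized counts, below 3 of the 4 VC libraries. The log2 fold change of Lep was 0.23 (SE 0.52, 95% interval -0.91 to 1.37, adjusted p = 0.797) with AP.2 and -0.27 without it.

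Resistin (Retn, chromosome 8, 3655770 to 3660110, plus strand), a hormone that opposes insulin in mice, had 846, 393, 523 and 553 normalized counts in VC mice and 1099, 1476, 678 and 712 in AP mice. VC.1 was higher than AP.3 and AP.4, and the other 3 VC libraries were below every AP library. The means were 579 ± 191 and 991 ± 376 (SD, n = 4 each), with a log2 fold change of 0.75 (SE 0.28, 95% interval 0.14 to 1.37), and the adjusted p was 0.101 with limma, 0.0973 with edgeR and 0.0680 with DESeq2. Complement factor D (Cfd, also called adipsin, chromosome 10, 79890853 to 79892655, plus strand), a protease of the alternative complement pathway, had 13925, 4120, 3601 and 9810 in VC mice and 11451, 14584, 6778 and 5855 in AP mice. Its log2 fold change was 0.43 (SE 0.45, 95% interval -0.55 to 1.40, adjusted p = 0.546), from 0.13 without VC.3 to 0.78 without VC.1.

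The enzymes were Car3 and Pck1. Carbonic anhydrase 3 (Car3, chromosome 3, 14863512 to 14872523, plus strand), abundant in fat and in slow muscle fibres, had 10718, 6242, 5805 and 9902 normalized counts in VC mice and 7302, 10968, 3549.5 and 3425 in AP mice. AP.2 was the highest and AP.4 the lowest of the 8. Its log2 fold change was -0.50 (SE 0.38, 95% interval -1.32 to 0.33, adjusted p = 0.401), from -0.82 without AP.2 to -0.26 without AP.4. Pck1, whose enzyme helps supply glycerol phosphate for re-esterification of fatty acids in fat (chromosome 2, 173153048 to 173159273, plus strand), had 2750.4, 508, 304 and 1185 in VC mice and 1009.6, 1275, 794 and 413 in AP mice. It spanned the widest range of the 10, 9.03-fold from VC.3 to VC.1, and the log2 fold change was -0.06 (SE 0.58, 95% interval -1.33 to 1.20, adjusted p = 0.953).

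**Figure D2:**
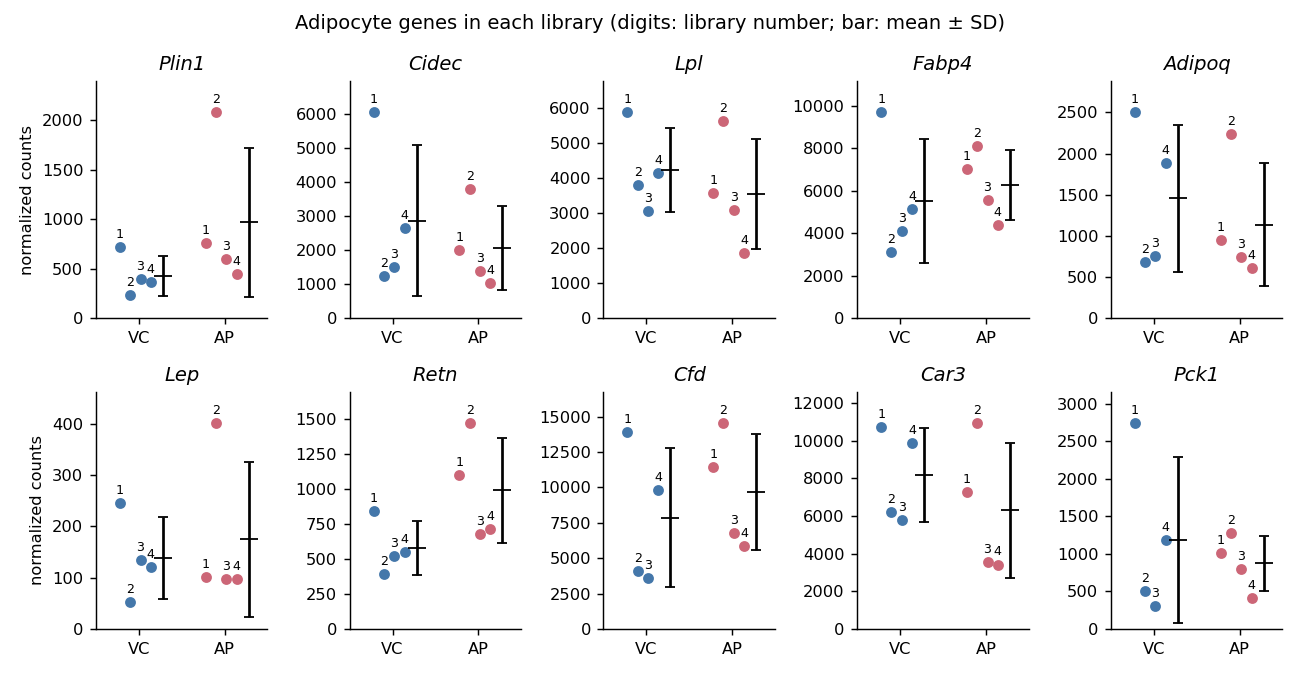
Normalized counts (y axis, from 0) of the 10 adipocyte genes in the 4 VC (blue) and 4 AP (red) libraries; digits are library numbers and bars the mean ± SD. VC.1 is the highest VC library and AP.2 the highest AP library for every gene, and the groups overlap in every panel.

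The spread between libraries of 1 group was the main feature of these genes. VC.1 was the highest VC library for 10 of 10 members and AP.2 the highest AP library for 10 of 10, and each was the highest of all 8 for 5. AP.1 was the second of the AP libraries for 10 of 10 and VC.4 the second of the VC libraries for 8, while AP.4 was the lowest AP library for 8 and VC.2 the lowest VC library for 6. The mean log2 level of the 10 genes was 11.54, 9.90, 10.10 and 10.79 in VC mice and 10.81, 11.62, 10.34 and 10.01 in AP mice. From the lowest to the highest library this was a 3.11-fold range in the VC group and a 3.07-fold range in the AP group, beside a difference of 0.11 between the group means. Single genes ranged from 3.12-fold to 9.03-fold over the 8 libraries. The pooled SD within groups, in log2 units, was 0.82 as the median of the 10 genes (0.50 to 1.10) and 0.42 over all genes tested. All 10 SDs exceeded the median of genes in the same decile of expression level, which was 0.26 or 0.34.

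**Figure D3:**
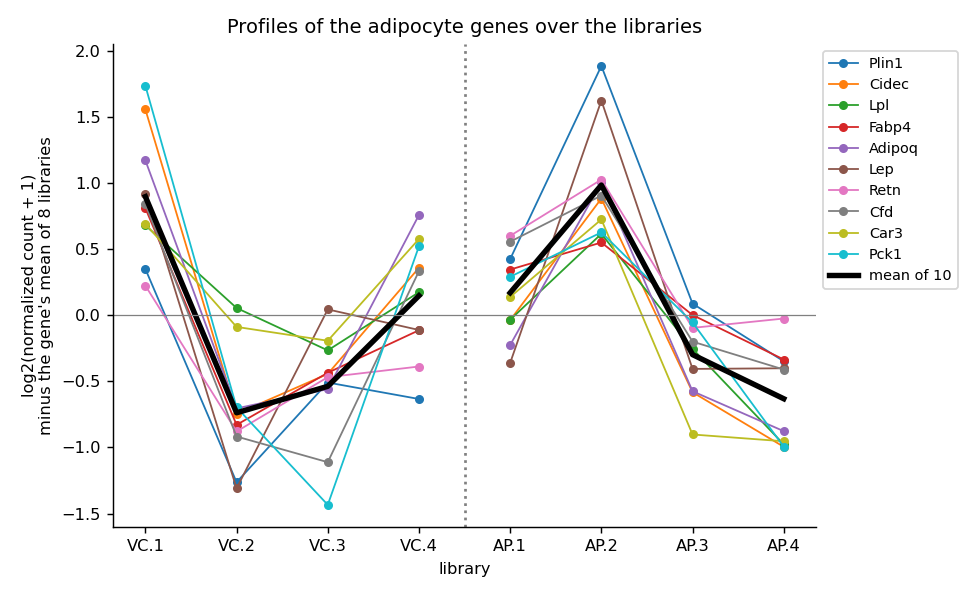
Log2(normalized count + 1) of each adipocyte gene minus its mean of the 8 libraries (y axis) across libraries (x axis; lines join libraries of 1 group and imply no order); the thick line is the mean of the 10 genes. The mean reaches 0.99 in AP.2 and -0.74 in VC.2, and the genes go up and down with it.

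The depth of tissue taken was not given in the labels, so markers of the neighbouring cells were set beside the adipocyte genes. The 15 skeletal muscle genes, which mark the sheet beneath the fat, had a mean log2 level of 11.37, 11.99, 11.29 and 10.86 in VC mice and 12.09, 9.06, 8.37 and 9.20 in AP mice. All 15 were listed, 15 of 15 log2 fold changes were below 0 with a median of -1.74, 12 had an unadjusted p under 0.05, and 1 gene was lower at an adjusted p under 0.05. That gene was Tnnc2, fast troponin C (-2.05, SE 0.59, limma adjusted p = 0.0497, and 0.157 with DESeq2), and it passed in 1 of the 8 fits with a library left out. Acta1, skeletal actin, had a log2 fold change of -1.92 (adjusted p = 0.0628). The muscle genes did not order the libraries as the adipocyte genes did: AP.2, at the top for fat, was among the 3 libraries lowest in muscle, and VC.2, lowest in fat, was the highest VC library in muscle. The part of tissue depth in the adipocyte values was not tested.

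The 12 endothelial genes ran from 7.04 to 8.08 (mean log2 level) in the VC libraries and from 8.25 to 9.48 in the AP libraries, with AP.2 highest and VC.1 lowest. Their median log2 fold change was 1.31, with 11 above 0 and 1 below (Egfl7, -0.40), and 10 had a limma unadjusted p under 0.05. At a limma adjusted p under 0.05, 3 rose: Pecam1, an endothelial adhesion molecule (1.44, SE 0.31, adjusted p = 0.0198), Flt1, a VEGF receptor (1.86, adjusted p = 0.0212), and Cdh5, the endothelial cadherin (1.75, adjusted p = 0.0386). Cdh5 passed in 3 of the 8 fits with a library left out. The 10 suprabasal keratinocyte genes had a mean log2 level of 8.64, 9.35, 9.08 and 8.33 in VC mice and 10.92, 10.36, 12.37 and 12.54 in AP mice. Within the AP group the libraries stood in the reverse order of the adipocyte genes. Within the VC group, VC.2 and VC.3 were highest for these genes and lowest in fat, but VC.4 rather than VC.1 was lowest. The median log2 fold change of the 10 was 2.96, and 8 rose. Among them were Krt10 (3.85), Krt77 (3.95), Krt1 (3.46) and Krtdap (2.91), each with a limma adjusted p of at most 0.00843. The 10 dermal fibroblast genes had a median of 0.08 and 0 calls (2 with an unadjusted p under 0.05; Col1a1, the main collagen chain, 0.63, adjusted p = 0.428), and their level was highest in VC.4 and AP.1, at 12.94 and 12.96. The 8 macrophage genes had a median of -0.88 with 0 calls (6 with an unadjusted p under 0.05; Adgre1, the F4/80 antigen, -0.86, adjusted p = 0.111). The 10 sebaceous gland genes had a median of 0.24 with 0 calls (1 with an unadjusted p under 0.05; Mc5r, a sebocyte melanocortin receptor, 1.21, adjusted p = 0.482), and their level was 9.57 in VC.2 and 7.12 in VC.1. The part of these other cells in the adipocyte values was not tested.

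**Figure D4:**
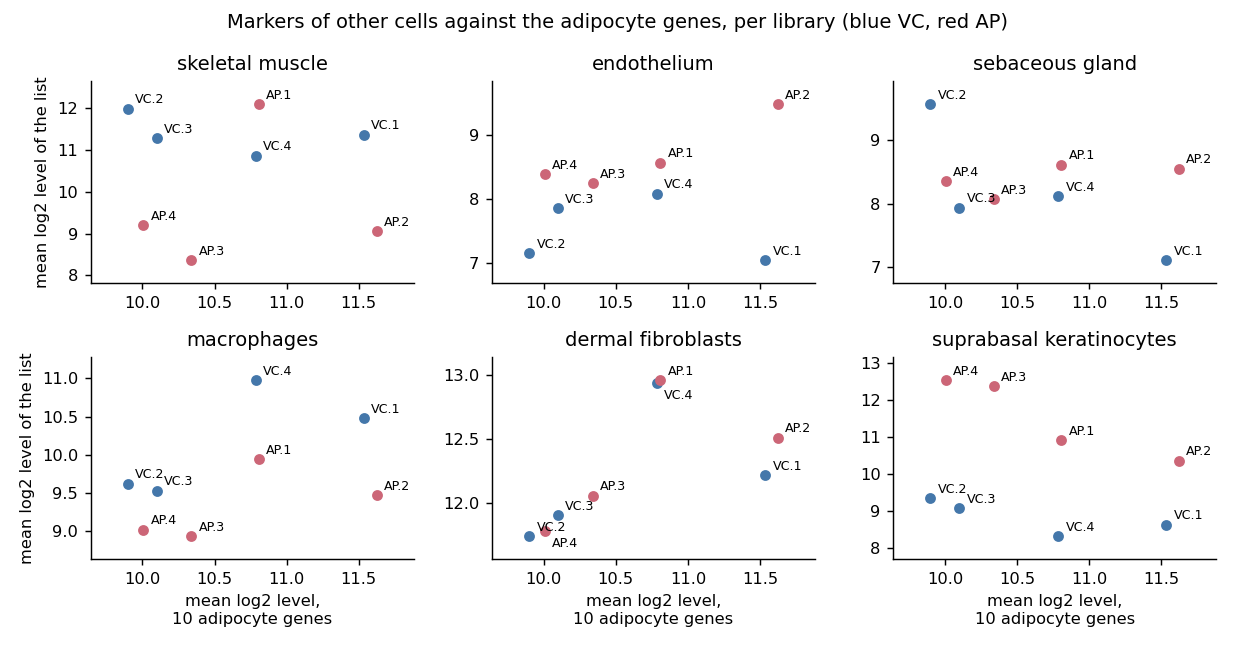
Mean log2 level of 6 lists of markers of other cells (y axes) against the mean log2 level of the 10 adipocyte genes (x axes), 1 point a library, blue for VC and red for AP. AP.2 and VC.1 lie furthest right in all panels, and the skeletal muscle list is low in AP.2, AP.3 and AP.4 but not in AP.1.

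Because the 10 genes shared a profile, each was also taken relative to the mean log2 level of the other 9 in the same library, a quantity chosen after the values had been seen. The SD within groups then became smaller for 10 of 10 members, with a median of 0.34. Relative Plin1 levels were -2.28, -2.25, -1.64 and -2.54 in VC mice and -1.38, -0.67, -1.24 and -1.35 in AP mice. The groups did not overlap, and the difference was 1.01 (means -2.18 ± 0.38 and -1.16 ± 0.34, SD, n = 4 each; two-sided exact permutation p = 0.0286, the smallest that 4 libraries against 4 allow). Relative Cidec levels were 1.14, 0.40, 0.51 and 0.64 in the VC libraries and 0.18, 0.29, 0.09 and 0.0037 in the AP libraries, a difference of -0.53 (exact permutation p = 0.0286). The groups did not overlap here either. No permutation p of the relative levels is adjusted for the 10 members examined. With a quantity chosen after the values had been seen, these p-values are a description and not a finding of a difference. Such levels are centred, so the 10 differences sum to 0 and opposite signs among members are no finding. Without overlap were 2 of the 10 members, and 2.89% of the other 15954 genes taken relative to the mean of the 10. The shares are not comparable, since the subtraction takes a shared profile out of the members and puts it into other genes, and nothing is read from them.

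A limma fit across all genes did not call these differences, but it did not use each gene's own spread. In a limma fit of all 15964 genes relative to the adipocyte mean, 0 members passed an adjusted p of 0.05 and 0 had an unadjusted p under 0.05, while 134 genes were called higher and 42 lower. The log2 fold change there was 1.01 for Plin1 (SE 0.59, adjusted p = 0.797) and -0.53 for Cidec (SE 0.57, adjusted p = 0.988). This fit was run before the permutation test was chosen. In it, members were taken relative to the mean of the other 9 and all other genes relative to the mean of the 10. The total degrees of freedom of this fit were 95784, so each SE came from a trend common to all genes. The SE it gave Plin1 was larger than the SD of the relative Plin1 level within groups, 0.36. The fit therefore cannot decide whether the relative levels of Plin1 and Cidec differ, and nothing is read from it. Scaling cancels in a relative level, and leaving out a library cannot make separate groups overlap, so those settings are no check of it. With a trend on transcript length removed, Plin1 (0.94) still did not overlap, Cidec (-0.44) did, and Retn (0.92) and Lpl (-0.75) no longer did. Retn (0.71), Car3 (-0.68) and Adipoq (-0.50) each gave an exact permutation p of 0.0571 with overlapping groups.

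**Figure D5:**
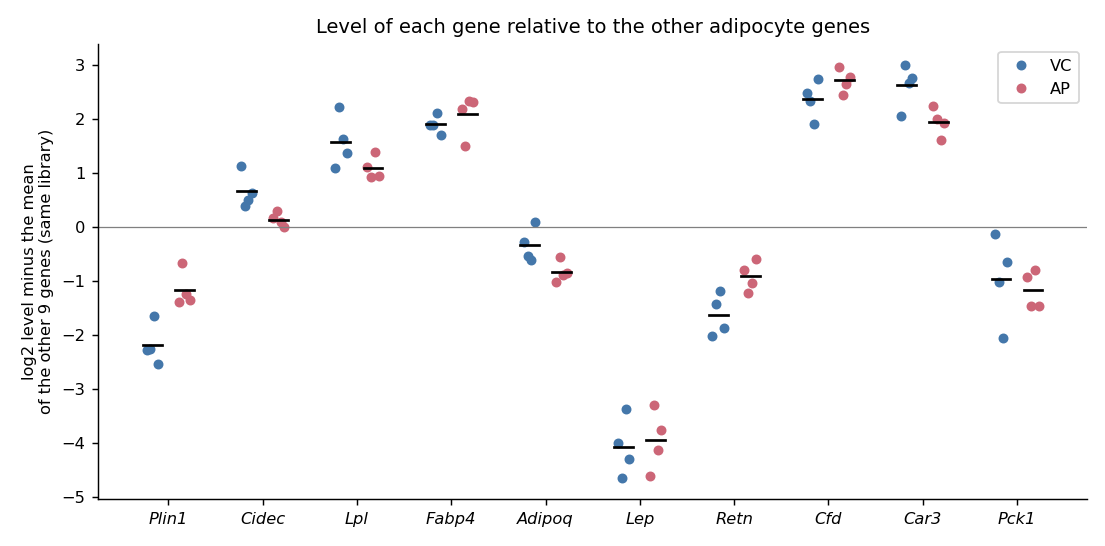
Log2 level of each adipocyte gene minus the mean of the other 9 in the same library (y axis, log2 units), for the 4 VC (blue) and 4 AP (red) libraries, with group means as black lines. Plin1 is higher and Cidec lower in all AP libraries than in all VC libraries, and the other 8 genes overlap; with the length trend removed, Plin1, Retn and Lpl do not overlap and Cidec does.

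Transcript length moved with the comparison among genes with a mean of at least 50 normalized counts. These were split by the length of the longest annotated transcript into 3 bins of about equal size. The short bin, which holds Cidec, Adipoq, Retn, Cfd and Car3, had a median log2 fold change of -0.27. The middle bin, with Plin1, Lpl, Fabp4, Lep and Pck1, had one of 0.03, and the long bin, with no member, one of 0.31. With that trend removed in each library, Retn had a log2 fold change of 1.02 (limma adjusted p = 0.0464), and Cidec had one of -0.20. The part of transcript length in the values given above was not tested further.

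Per kilobase of the longest transcript, the mean over the 8 libraries was highest for Cfd (9507 normalized counts per kb, 3905 to 15818) and Car3 (4311, 2040 to 6533). Cidec (1426), Fabp4 (1391), Adipoq (1002), Lpl (943), Retn (689), Pck1 (378) and Plin1 (248) followed, and Lep was lowest (47.9, 15.9 to 123). The ranges of all neighbours in this order overlapped. Within libraries, Cfd was above Car3, Car3 above Cidec and Plin1 above Lep in 8 of 8. Cidec was above Fabp4 in 3 of 8 and Adipoq above Lpl in 4 of 8, so these neighbours had no fixed order on this scale. The longest annotated transcript need not be the main one in skin. That of Fabp4, 4231 bases, covers nearly all of its gene, and a shorter main transcript would raise its value per kb. Which transcripts were present was not tested.

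The wider adipocyte programme was read from 9 lists with 76 genes, of which 75 were tested. At an adjusted p under 0.05, 5 genes (6.67% of those tested, near the share of all genes) were higher in AP skin and 0 lower. Of the 75 log2 fold changes, 51 were above and 24 below 0, with a median of 0.27. Pparg, the master regulator of fat cells, averaged 216 ± 92.4 normalized counts in VC and 196 ± 68.5 in AP skin (SD, n = 4 each; log2 fold change -0.12, SE 0.30, adjusted p = 0.814), and 0 of 12 adipogenic transcription factors were called. Pparg had 180, 355, 168 and 163 in VC mice and 209, 286, 127 and 163 in AP mice. Its highest library, VC.2, had the lowest mean level of the 10 adipocyte genes and the highest sebaceous gland level, 9.57. The part of sebaceous cells in these values was not tested. Cebpa, the gene of C/EBPα, had 1943, 3389, 2189 and 1843 in VC mice and 2433, 2934, 3553 and 3962 in AP mice (0.48, SE 0.23, limma adjusted p = 0.178). The part of these factors in the levels of the members was not tested.

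The 5 genes that rose came from 5 lists. Acsl1, which activates fatty acids by joining them to coenzyme A, had 719, 514, 509 and 506 normalized counts in VC mice and 1047, 1920, 929 and 908 in AP mice (1.04, SE 0.24, limma adjusted p = 0.0245). The groups did not overlap. Irs2, an adaptor of the insulin receptor, had 94.6, 117, 91.5 and 161 in VC mice and 238, 243, 291 and 187 in AP mice (1.06, SE 0.23, adjusted p = 0.0212). Here too every AP library was above every VC library, and AP.3 was the highest. Cav2, a caveolin of the cell membrane that endothelium also expresses, had 380, 251, 294 and 315 in VC mice and 477, 674, 553 and 540 in AP mice (0.86, SE 0.17, adjusted p = 0.0172).

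Adrb3, the β3-adrenergic receptor through which noradrenaline starts lipolysis in fat, had 32.7, 25.1, 49.2 and 9.38 normalized counts in VC mice and 84.9, 181, 105 and 54.4 in AP mice (1.91, SE 0.50, limma adjusted p = 0.0372). The VC.4 value was near the floor of 3 reads, 5.63 normalized counts in that library. Without VC.4 the log2 fold change of Adrb3 was 1.47 (limma adjusted p = 0.0578). Gpam, which begins triglyceride synthesis, had 111, 409, 84.7 and 60 in VC mice and 394, 474, 356 and 345 in AP mice (1.65, SE 0.47, adjusted p = 0.0455). VC.2 was inside the AP range for Gpam and was also the library with the highest sebaceous gland level. With a library left out, Acsl1 passed in 7 of 8 fits, Irs2 in 6, Cav2 in 5, Adrb3 in 2 and Gpam in 1, and the adjusted p of Gpam was 0.0643 with DESeq2 and 0.116 with edgeR. With the length trend removed, the limma adjusted p was 0.0824 for Acsl1, 0.0851 for Irs2 and 0.104 for Gpam, while Adrb3 (0.0474) and Cav2 (0.0210) passed. Without AP.3, 0 of the 75 genes passed, and without AP.2, 1 did.

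The first gene of each remaining list was not called: Acly, the enzyme that supplies acetyl-CoA for fatty acids (0.69, adjusted p = 0.229), Pnpla2, the first lipase of lipolysis (-0.08, adjusted p = 0.898), Plin2, a droplet coat of many cells (-0.67, adjusted p = 0.107), Cd36, a fatty acid transporter (0.16, adjusted p = 0.780), Insr, the insulin receptor (0.61, adjusted p = 0.0902), Rbp4, a retinol carrier (0.22, adjusted p = 0.672), and Pdgfra, a marker of progenitors (0.59, adjusted p = 0.163). The 4 genes of the thermogenic list that were tested all had log2 fold changes below 0, with a median of -0.50 and 0 calls (1 with an unadjusted p under 0.05). Ucp1, the first gene of that list, was not among the 18770 genes listed and so has no value here.

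Genes outside the set were ranked by how closely their profile over the 8 libraries followed the mean of the 10 (root mean square difference of centred log2 levels, among 11247 genes with a mean of at least 50 normalized counts). The closest was Aldh1l1, a folate enzyme, at 0.10, followed by Ghr, the growth hormone receptor (0.13), Pnpla2 (0.14), Hp, haptoglobin (0.15), Thrsp, a regulator of fatty acid synthesis (0.17), Slc1a3, a glutamate transporter (0.18), Plaat3, a phospholipase (0.19), Mfng (0.20), H6pd (0.21) and Dram1 (0.21). The median gene was at 0.73. Aldh1l1 had 447, 157, 176 and 285 normalized counts in VC mice and 293, 506, 243 and 186 in AP mice, high in VC.1 and AP.2 as the members were. Pnpla2 and Thrsp were the 2 of these genes that stood on a list above, and the likeness is a description over libraries that share their depth and tissue.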

How the data were processed

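Messenger RNA of dermis with hair follicles was sequenced from 4 VC and 4 AP mice. The authors aligned reads to mm10 with STAR and normalized gene counts with DESeq2; featureCounts is named in the study's methods and HTSeq in the submitters' processing notes. The signal values deposited by the authors are counts divided by 1 size factor per library. The deposited log2 fold changes, Wald score and p-values of the authors' own comparison were not used. All 150160 values were whole reads within 0.01, so counts could be recovered. Table columns name the group but not the mouse, so libraries were grouped by AP or VC only.

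The design took the main test to be limma 3.58.1 (R 4.3.3) with an intensity trend on log2(value + 1), over the 15964 genes that reached 3 normalized counts in 4 or more of the 8 libraries, with Benjamini-Hochberg adjustment over all of them. DESeq2 1.42.0, edgeR 4.0.16 and voom were alternatives, as were other scalings, pseudocounts of 0.5 and 5, other filters, a transcript length correction (loess, span 0.3) and each library left out, 20 in all. On simulated data limma recovered 185 of 200 genes changed 4-fold, with 6 false calls. The changed genes had a mean of at least 50, and counts were drawn independently for each gene. Neither smaller changes nor a profile shared between genes, as the members have, was simulated, so the result does not give the power for the members. Coordinates and lengths came from GENCODE M21.

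The members and lists were chosen with earlier results of these data known. Besides the members, the genes named are those of each list with an adjusted p under 0.05 (at most 4), the first gene of each list, and the 10 genes with the most similar profile. Cebpa was added because its protein is named with the promoter motifs. Nothing states a technical repeat, and p-values measure the spread between these 8 libraries.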

Additional observations from a re-analysis of the deposited data

Results flagged for a closer look

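A library was noted where it stood apart from the other 3 of its group by Dixon's criterion; chance gives this in about 1 in 20 groups, and 4 of the 70 groups of 4 examined met it. Lep had 402.231 normalized counts in AP.2, against 97.7 to 101 in the other AP libraries. Relative to the other 9 adipocyte genes, the log2 level of Fabp4 in AP.2 was 1.51264, below the 2.19 to 2.33 of the other AP libraries. The mean log2 level of the adipogenic transcription factors was 8.3352 in VC.3, against 7.97 to 8.00 in the other VC libraries. That of the fatty acid and triglyceride synthesis genes was 10.6755 in VC.2, against 9.62 to 9.70 in the others, and VC.2 was also the VC library with the highest sebaceous gland level, 9.57. The part of these libraries' tissue composition in the values was not tested.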

How the results depend on the processing

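The count of members called lower stayed at 0 in all 20 alternatives, and that of members called higher stayed at 0 in all but scaling by total reads and removal of the length trend. Scaling by total reads, mitochondrial reads included, moved the all-gene median log2 fold change from 0.06 to 0.90 and that of the members to 0.95. It called 4 members higher, 8657 genes higher and 70 lower (99.2% of calls higher, against 61.3%), and 48 genes of the adipocyte lists, and it gave positive log2 fold changes for Cidec (0.51), Lpl (0.55), Adipoq (0.54), Car3 (0.38) and Pck1 (0.81), all below that shift. Upper-quartile factors gave 52.2% of calls higher and the length correction also 52.2%. With the length trend removed, 1 member (Retn) and 580 genes were higher. DESeq2 gave 1677 genes higher and 1362 lower, with 9 and 1 on the adipocyte lists; voom with sample weights gave 1 list gene lower and a log2 fold change of 0.17 for Pck1. The cause of these changes was not tested. With a library left out, the members' median ran from -0.28 (without AP.2) to 0.54 (without VC.1), genes higher from 209 (without AP.3) to 1082, genes lower from 94 (without AP.3) to 817, list genes higher from 0 to 8 and list genes lower from 0 to 1. Cidec ran from -0.72 to 0.09 (0.0937 without VC.1), Adipoq from -0.73 to 0.00037, Lep from -0.27 to 0.57 and Pck1 from -0.55 to 0.50, and 0 members passed in any of the 8 fits. No paired analysis was possible because the groups share no replicate numbers in the labels. With 4 libraries a group and this spread, 2-fold differences of single members were not resolved.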
